A study of Mus musculus with 8 samples.

Results

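Sspn, Cpq, Nlrx1, Cldn12, Rpusd4 and Npepl1 are 6 mouse genes that were chosen from these data because their array probes were detected in female neural stem cells and in embryonic fibroblasts, but not in parthenogenetic neural stem cells or in the neural stem cells titled miPS-NSC. All named probes of these symbols were taken, which gave 7 probes, with 5 genes read by 1 named probe each and Nlrx1 by 2. Of the 25697 probes in the signal table, only the 12421 with processed values from the authors could carry a name. Those had a detection p-value under 0.05 on at least 4 arrays, which the 7 probes met through the fNSC and MEF arrays. A further probe of these genes outside the 12421 could not be seen. The rule used the detection calls and levels themselves, so the loss of signal in pNSC and miPS-NSC is a description of the choice and carries no test.

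The series holds 8 Illumina bead arrays from cultured mouse cells, on which each probe sits on many beads whose brightness measures the matching RNA. There were 4 groups of 2 arrays. The pNSC arrays held parthenogenetic neural stem cells (cells with 2 maternal genome copies and no paternal one) of genotype OG2+/-, with P18 in the sample name. The miPS-NSC arrays also carried genotype OG2+/-, with P8 in the sample name, and the labels do not say what these cells were made from. The fNSC arrays held female neural stem cells of genotype OG2ROSA, with P27 in the sample name. The MEF arrays held mouse embryonic fibroblasts, labelled OG2+/-, although their columns in the signal table are named OG2ROSA1. All groups were labelled female, and OG2 is known as a mouse line with an Oct4-driven green fluorescent reporter. Both groups without signal are labelled OG2+/-, and both groups with signal carry OG2ROSA in the label or in the column name, so group, genotype and the number in the sample name cannot be told apart. In every group 1 of the 2 arrays carries an unexplained mark at the end of its title, and nothing says that arrays came from separate cultures, so p-values measure the spread between arrays, which may be technical.

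The genes have different jobs. Sspn encodes sarcospan, a membrane protein of the dystrophin-glycoprotein complex, which ties the cytoskeleton to the extracellular matrix. Cldn12 encodes a claudin, a family of tight junction membrane proteins, and lacks the end by which most claudins bind scaffold proteins. Nlrx1 encodes a mitochondrial member of the NLR family of innate immune proteins that is tied to antiviral signalling. Rpusd4 encodes a mitochondrial pseudouridine synthase, which in human cells acts on mitochondrial ribosomal RNA. Cpq encodes a secreted and lysosomal carboxypeptidase, and Npepl1 a protein that by its sequence belongs to the leucyl aminopeptidases.

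An array detected 10553 to 10902 of the 25697 probes (41.1% to 42.4%) at a detection p-value under 0.01, which compares a probe with the array's negative control beads, and the median probe was read on 34 to 40 beads. The cell labels were checked against marker genes, and the check is limited. A probe carries a name only with a detection p-value under 0.05 on at least 4 arrays, so that filter in part fixes which markers count as detected. Of 18 listed neural stem cell markers 14 had a named probe, and of 15 listed fibroblast markers 8. Of 14 neural stem cell markers with a named probe, 13 were detected on both arrays of pNSC, of miPS-NSC and of fNSC, and 6 in MEF. In pNSC none of 13 tested was called higher than in fNSC and 1 was lower (7.69%, against 11.4% of all genes, calls defined below). In miPS-NSC 2 were higher and 5 lower (53.8%, against 14.1%). Hes5 was 2.72-fold lower in pNSC and 6.59-fold lower in miPS-NSC. Also lower in miPS-NSC were Fabp7 (7.13-fold), Notch1 (2.63-fold), Nes (2.38-fold) and Olig2 (2.21-fold). Msi2 (2.03-fold) and Ncan (2.79-fold) were higher. The authors' values ended the Olig2 and Msi2 calls. Of 8 fibroblast markers, 4 were detected in pNSC, 5 in miPS-NSC, 4 in fNSC and all 8 in MEF, with summed levels of 4919 to 5073 in pNSC, 8374 to 8407 in miPS-NSC and 3368 to 3391 in fNSC, against 102527 to 105321 in MEF. Of 8 tested, 2 were called higher and 1 lower in pNSC than in fNSC (37.5%, against 11.4% of all genes). In miPS-NSC 2 were higher and none lower (25%, against 14.1%). Single fibroblast markers differed in their order. Col6a1 averaged 11.44 in pNSC and 11.53 in miPS-NSC, against 8.19 in fNSC and 13.47 in MEF (normalized log2). Thy1 averaged 9.74 in miPS-NSC and 15.07 in MEF and was not detected in pNSC or fNSC. Twist2 averaged 7.10 in pNSC and 12.79 in MEF and was not detected in miPS-NSC or fNSC. Twist1, a mesenchymal transcription factor gene, was not detected in pNSC and averaged 9.32 in miPS-NSC, against 8.90 in fNSC and 10.30 in MEF (normalized log2), and Prrx1, another, averaged 7.46 in pNSC and 6.57 in miPS-NSC, against 7.44 in fNSC and 10.26 in MEF. Astrocyte marker sums were 39109 to 39966 in pNSC and 24374 to 25594 in miPS-NSC, against 14506 to 15485 in fNSC and 14985 to 15224 in MEF. Of 7 named genes, 6, 5, 5 and 3 were detected in these groups. Of 6 tested, 3 were called higher in pNSC and 4 in miPS-NSC than in fNSC, and none lower. These are 50% and 66.7%, against 11.4% and 14.1% of all genes. Apoe, not detected in fNSC, was at least 35.9-fold higher in pNSC and at least 10.6-fold higher in miPS-NSC. Clu was 8.13-fold higher in pNSC and 17.8-fold higher in miPS-NSC. Single astrocyte markers differed in their order. Slc1a2 averaged 7.66 in pNSC and 9.83 in miPS-NSC, against 8.36 in fNSC and 5.93 in MEF. Gja1 averaged 14.17 and 13.24, against 10.02 and 13.84, and Aldoc 14.02 and 13.34, against 13.69 and 5.61. Neuron marker sums were 7075 to 7221 in pNSC and 16073 to 17204 in miPS-NSC, against 6448 to 7244 in fNSC and 3699 to 3946 in MEF, with 5, 5, 5 and 3 of 8 detected. Oligodendrocyte lineage marker sums were 40510 to 43813 in pNSC and 26419 to 29364 in miPS-NSC, against 36046 to 37072 in fNSC and 4012 to 4265 in MEF, with 3, 1, 2 and 2 of 3 detected. In the neural groups these sums were mostly Olig1, at 15.29 in pNSC, 14.76 in miPS-NSC and 15.15 in fNSC. Pdgfra averaged 10.91 in pNSC and 11.94 in MEF but was not detected in fNSC, and Cspg4 was not detected in miPS-NSC. The part of cell makeup in the signal of the 6 genes was not tested. Of 7 listed microglia or blood markers and 5 listed endothelial ones, only 1 each had a named probe, so these cell types were hardly covered. Neither probe was detected on both arrays of any group. In bulk RNA, fewer cells that use a gene and less RNA per cell cannot be told apart.

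Sspn had the widest ratio of deposited intensity between arrays with and without signal. Its deposited intensity was 169.8 and 145 in pNSC and 189 and 166 in miPS-NSC, against 1832 and 1811 in fNSC and 1332 and 1259 in MEF. The lowest array with signal was 6.67 times as bright as the highest without it, and detection p-values on the pNSC and miPS-NSC arrays ran from 0.818 to 0.969, so its signal there was within the range of the negative controls. On the normalized log2 scale Sspn averaged 4.66 ± 0.10 in pNSC and 4.74 ± 0.04 in miPS-NSC, against 10.92 ± 0.0009 in fNSC and 9.70 ± 0.002 in MEF (SD, n = 2 each). A probe not above background has only a bound, set here at the lowest normalized signal of any detected probe on the same array (6.13 to 6.29). Against that bound Sspn was at least 26.1-fold lower in pNSC and at least 26.4-fold lower in miPS-NSC than in fNSC, and at least 11.2-fold and 11.4-fold lower than in MEF.

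Cldn12 showed 185 and 191 in pNSC and 221 and 208 in miPS-NSC, against 1011 and 825 in fNSC and 3126 and 3486 in MEF. Both fNSC arrays lay below both MEF arrays, and all 4 stood above every array of the other groups. It was at least 12-fold lower in pNSC and at least 12.1-fold lower in miPS-NSC than in fNSC, and at least 30.5-fold and 30.9-fold lower than in MEF. One miPS-NSC array gave Cldn12 a detection p-value of 0.0514, near the looser limit of 0.05.

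Nlrx1 was read by 2 probes of unequal brightness. The brighter probe gave 195 and 186 in pNSC and 219 and 194 in miPS-NSC, against 879.9 and 758 in fNSC and 791 and 751 in MEF. It was at least 10.4-fold lower in pNSC and at least 10.6-fold lower in miPS-NSC than in fNSC, and at least 6-fold and 6.08-fold lower than in MEF. The bead standard errors of this probe in fNSC were 96.3 and 98.8 on 33 and 23 beads, and its lowest array with signal was 3.44 times as bright as its highest without. The dimmer Nlrx1 probe gave 179 and 168 in pNSC and 172 and 158 in miPS-NSC, against 309 and 315 in fNSC and 251 and 256 in MEF. As with the brighter probe, fNSC lay above MEF and both lay above pNSC and miPS-NSC, but the spacing was small and the first MEF array missed detection, with a p-value of 0.0138. It was at least 2.45-fold lower in pNSC and at least 2.48-fold lower in miPS-NSC than in fNSC, and at least 1.05-fold and 1.06-fold lower than in MEF, of which only 1 of 2 arrays detected it.

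Rpusd4 showed 195 and 206 in pNSC and 222 and 205 in miPS-NSC, against 755 and 754 in fNSC and 1079.7 and 1005 in MEF. The second pNSC array had a detection p-value of 0.0351, so at the looser limit Rpusd4 would count as present there. It was at least 9.42-fold lower in pNSC and at least 9.55-fold lower in miPS-NSC than in fNSC, and at least 8.69-fold and 8.81-fold lower than in MEF.

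The peptidase genes separated less in fNSC than in MEF. Cpq gave 193 and 188 in pNSC and 183 and 176 in miPS-NSC, against 676 and 665 in fNSC and 1803 and 1792 in MEF, and was at least 8.12-fold lower in pNSC and at least 8.22-fold lower in miPS-NSC than in fNSC. Npepl1 gave 204 and 193 in pNSC and 228 and 216 in miPS-NSC, against 837 and 733 in fNSC and 3671 and 3406 in MEF. It was at least 9.88-fold lower in pNSC and at least 10-fold lower in miPS-NSC than in fNSC. Against MEF the bounds were 16.1-fold and 16.3-fold for Cpq and 32.6-fold and 33-fold for Npepl1. On the pNSC and miPS-NSC arrays the p-value nearest to the detection limit was that of Npepl1, 0.0238 on the second miPS-NSC array.

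**Figure D1:**
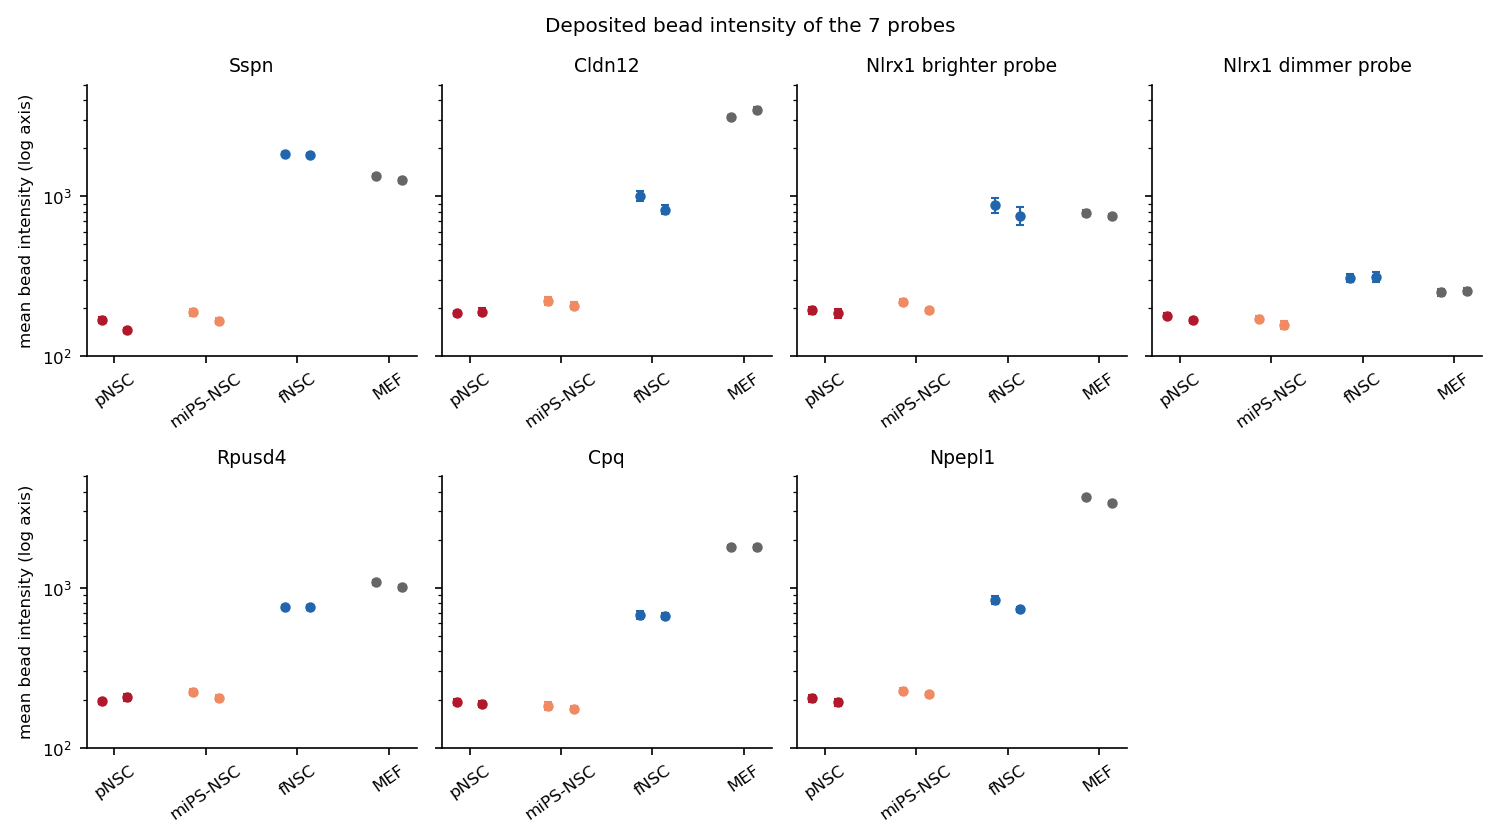
Deposited mean bead intensity (log axis) of the 7 probes on each of the 8 arrays, by group, with points for arrays and bars for the bead standard error. The pNSC and miPS-NSC arrays lie at 145 to 228 for every probe, below all fNSC and MEF arrays, with the narrowest gap for the dimmer Nlrx1 probe.

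**Figure D2:**
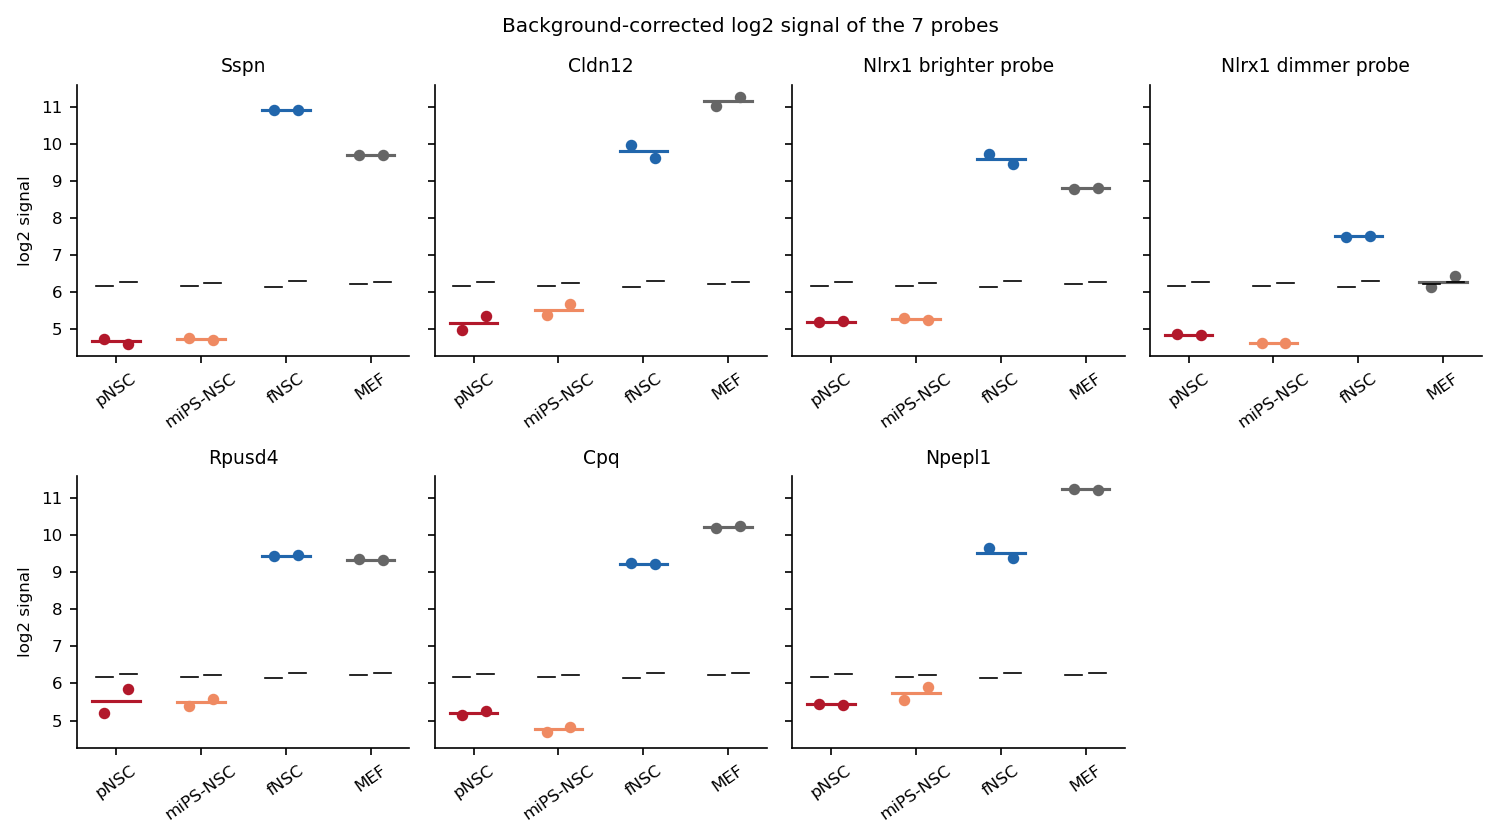
Normalized log2 signal of the 7 probes by group, with points for arrays, coloured lines for group means and short black lines for the lowest signal of a detected probe on that array. All pNSC and miPS-NSC points lie below the black lines, Sspn sits higher in fNSC than in MEF, and Cldn12, Cpq and Npepl1 sit lower.

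The levels of pNSC and miPS-NSC arrays did not overlap those of fNSC and MEF arrays for any of the 7 probes, which the rule fixes. Over all 12478 probes kept for testing, 4.66% were called lower in pNSC than in fNSC and 5.47% lower in miPS-NSC than in fNSC, and against MEF the shares were 22% and 21.6%. A call needed an adjusted p-value under 0.05 in limma with Benjamini-Hochberg adjustment and a change of at least 2-fold. No fold between pNSC and miPS-NSC was taken, since neither group was above background. With the authors' own processed log2 values all 28 differences of the 7 probes were also below 0, and no fold is taken from them, since the probes were not above background in pNSC and miPS-NSC.

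The comparison of fNSC with MEF was not fixed by the rule, which asked only for signal in both. Its calls went both ways, as they did over all kept probes. Of the 7 probes, 2 were called higher in fNSC, 2 lower and 3 not called, against 46.1% of all kept probes called in this comparison (24.7% higher and 21.4% lower). Whether the arrays of fNSC and MEF overlap says little with 2 arrays a group. They lay apart also for Rpusd4, which did not pass the test. The share of all kept probes lying apart was not taken, so no count is given. Sspn was 2.32-fold higher in fNSC than in MEF (log2 difference 1.22, SE 0.0886, adjusted p = 1.11e-05 in limma). The dimmer Nlrx1 probe, detected on 1 of 2 MEF arrays, was 2.34-fold higher in fNSC (1.23, SE 0.116, adjusted p = 4.65e-05 in limma). The brighter Nlrx1 probe was 1.74-fold higher (0.80, SE 0.109, adjusted p = 0.000352 in limma) and missed the 2-fold limit. With the authors' values the dimmer probe's difference was 0.40, which ends its call.

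Npepl1 was 3.3-fold lower in fNSC than in MEF (log2 difference -1.72, SE 0.143, adjusted p = 2.24e-05 in limma), and Cldn12 was 2.54-fold lower (-1.35, SE 0.187, adjusted p = 0.000375). Cpq, at -0.99 (SE 0.0949, adjusted p = 5.05e-05), fell just short of a 2-fold difference. Rpusd4 gave 0.12 (SE 0.198, adjusted p = 0.604 in limma) and did not pass the test. Each SE pools the spread of all 4 groups, also where a probe was not above background. For Rpusd4 the SD was 0.003 in fNSC and 0.017 in MEF, against 0.46 in pNSC and 0.13 in miPS-NSC. The deposited intensity of Rpusd4 was higher in MEF, whose arrays were brighter as a whole before normalization. Mean array intensities were 887 to 900.5 in fNSC and 1250 to 1326 in MEF.

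**Figure D3:**
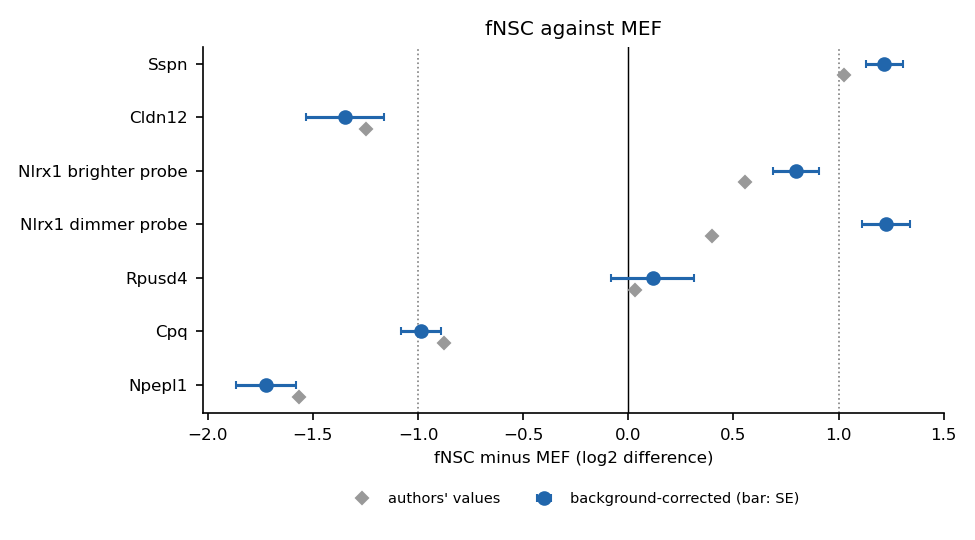
Log2 difference of fNSC minus MEF for the 7 probes, with circles and standard error bars from limma, diamonds for the authors' values and dotted lines at a 2-fold change. Sspn and both Nlrx1 probes lie above 0, Cldn12, Cpq and Npepl1 below it, and Rpusd4 near 0.

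Centred on its own mean, each gene's profile over the 8 arrays was set against the others as the root mean square (RMS) difference in log2, which describes likeness among genes chosen for a shared profile. Values below background enter these profiles, so the likeness was also taken with each such value set to the array's lowest detected signal, a setting chosen after seeing the data. Cldn12 and Npepl1 were closest, at 0.247 and, with that setting, 0.156, followed by Nlrx1 and Rpusd4 at 0.307 and 0.268. The most distant pair was Sspn and Npepl1 at 1.13, and with the setting Nlrx1 and Npepl1 at 1.07.

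The named genes nearest to these profiles depended on the values below background. Gnaq, which encodes a G protein alpha subunit, was among the 2 nearest for 5 of the 6 genes, but for only 3 (Sspn, Cldn12 and Npepl1) with values below background set to the lowest detected signal. Gnaq averaged 6.97 in pNSC and 6.92 in miPS-NSC, against 10.88 in fNSC and 10.88 in MEF, and was detected in all groups. A second Gnaq probe was detected on 1 fNSC array and on none of the others, so the Gnaq profile rests on 1 probe. Cops8, a subunit of the COP9 signalosome, was among the 2 nearest to Sspn both ways, at 0.405 and 0.446, with means of 6.55 in pNSC and 6.09 in miPS-NSC (detected on 1 of 2 miPS-NSC arrays), against 11.84 in fNSC and 10.88 in MEF. Wdr46 was among the 2 nearest to Nlrx1 both ways, at 0.473 and 0.279, and Enpp5 among the 2 nearest to Npepl1 both ways, at 0.684 and 0.453. Trim59, a member of the tripartite motif family that was not detected in pNSC or miPS-NSC, was among the 2 nearest for 4 genes, and for none with the setting.

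In all, 51 of 25697 probes (0.198%), naming 47 genes, were detected on all fNSC and MEF arrays and on no pNSC or miPS-NSC array at 0.01. They include 6 of the 7 probes described here, and the dimmer Nlrx1 probe fell outside through the MEF array at 0.0138. The gap between the lowest array with signal and the highest without it, with values below background set to the array's lowest detected signal, is a lower bound in log2. It was 3.44 for Sspn, 3.36 for Cldn12, 3.13 for Npepl1, 3.06 for Rpusd4, 2.97 for Cpq and 2.53 for the brighter Nlrx1 probe, and it exceeded 2 for 11 of the 51 probes. The reverse profile, detected in pNSC and miPS-NSC and not in fNSC or MEF, was found for 58 probes, of which 6 had a bound over 2. Both counts depend on the threshold. Requiring p-values of at least 0.05 on the arrays without signal left 21 probes, and 17 with the reverse profile, and left 4 of the member probes, with Rpusd4 and Npepl1 outside. Without the second fNSC array the profile was met by 98 probes, and without the first fNSC array the reverse profile by 107.

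Few of the genes known to work beside these 6, or related to them, were called. Lists of partner genes covered the dystrophin-glycoprotein complex, carboxypeptidases, aminopeptidases, NLR and mitochondrial antiviral signalling, claudins and tight junctions, and pseudouridine synthases with the mitochondrial RNA granule. Of the 192 listed genes, 83 had a kept probe, and 2 were called higher and 1 lower in pNSC than in fNSC, or 3.61% against 11.4% of all 8107 genes. In miPS-NSC 1 was called higher and 7 lower than in fNSC, or 9.64% against 14.1% of all genes.

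Of 8 measured genes of the dystrophin-glycoprotein complex, none was called in pNSC and 1 was called lower in miPS-NSC, with median log2 differences from fNSC of -0.01 and -0.03 (-0.01 and -0.04 over all genes). Dag1, which encodes dystroglycan, averaged 11.62 in pNSC and 11.78 in miPS-NSC, against 11.43 in fNSC, and Sgcb, which encodes beta-sarcoglycan, 10.71 and 10.40 against 9.99. The gene called lower was Dtna, which encodes alpha-dystrobrevin, 2.38-fold lower in miPS-NSC than in fNSC (log2 difference -1.25, adjusted p = 9.06e-05 in limma). Its other probes gave -0.95 and, not above background in miPS-NSC, -0.81. Quantile normalization without background correction ended the call. Muscle markers, where sarcospan is best known, had 3 of 5 named genes detected in pNSC, 3 in miPS-NSC, 1 in fNSC and 3 in MEF, with summed levels of 574 to 612 in pNSC and 591 to 597 in miPS-NSC, against 394 to 447 in fNSC and 816 to 852 in MEF.

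Among 10 claudin and tight junction genes, none was called in pNSC and 2 were lower in miPS-NSC, with medians of -0.01 and -0.06. Cldn11, known from myelin, averaged 8.19 in pNSC, against 7.47 in fNSC, and was at least 2.41-fold lower in miPS-NSC than in fNSC. Jam2, an adhesion molecule, was 2.04-fold lower in miPS-NSC (adjusted p = 0.000644 in limma), and its other probes gave -0.27 to -1.03. Tjp1, the scaffold protein ZO-1, averaged 9.46 in pNSC and 9.36 in miPS-NSC, against 9.47 in fNSC.

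Of 14 NLR and antiviral genes, 1 was called higher in pNSC and 1 higher in miPS-NSC, with medians of 0.15 and -0.10. Nlrc3, another NLR gene, was at least 1.63-fold higher in pNSC than in fNSC, where it was not above background, and Nod1, a sensor of bacterial cell walls, was 2.44-fold higher in miPS-NSC. Mavs, the mitochondrial antiviral adaptor, averaged 8.67 in pNSC and 8.35 in miPS-NSC, against 8.59 in fNSC, and was not called. Tufm, the mitochondrial elongation factor known as a partner of NLRX1, averaged 12.67 and 12.48, against 12.97 in fNSC, and was not called.

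The 29 measured genes of pseudouridine synthesis and the mitochondrial RNA granule had 1 call in pNSC and 2 in miPS-NSC, all lower, with medians of -0.19 and -0.35. Tfb1m, which encodes a methyltransferase of mitochondrial ribosomal RNA, was at least 2.79-fold lower in pNSC and at least 2.83-fold lower in miPS-NSC than in fNSC, with means of 4.64 and 4.58, against 7.70 in fNSC and 7.84 in MEF. Tfb1m is one of the 51 probes with the shared detection profile. Elac2, which trims transfer RNA ends, was 2.03-fold lower in miPS-NSC. Its other probes gave -1.07 and, not above background in miPS-NSC, -0.36. Trub2, another pseudouridine synthase, averaged 13.41 in pNSC and 13.10 in miPS-NSC, against 13.57 in fNSC, and was not called.

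Among 7 carboxypeptidase genes 1 was called higher in pNSC and 1 lower in miPS-NSC, with medians of 0.74 and 0.12, and both calls were Qpct. Qpct, a glutaminyl cyclase listed for its fold shared with the family of Cpq, was 6.98-fold higher in pNSC than in fNSC, where 1 of 2 arrays detected it, and at least 1.04-fold lower in miPS-NSC. Among 15 aminopeptidase genes none was called in pNSC and 1 was called in miPS-NSC, with medians of 0.05 and -0.06. That gene was Dpp3, a dipeptidyl peptidase, 2.35-fold lower in miPS-NSC (adjusted p = 6.31e-05 in limma). Rnpepl1, a relative in the aminopeptidase list, averaged 12.36 in pNSC and 11.85 in miPS-NSC, against 12.43 in fNSC. With the authors' values the calls left were Qpct and Tfb1m in pNSC and Tfb1m, Dtna and Dpp3 in miPS-NSC.

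**Figure D4:**
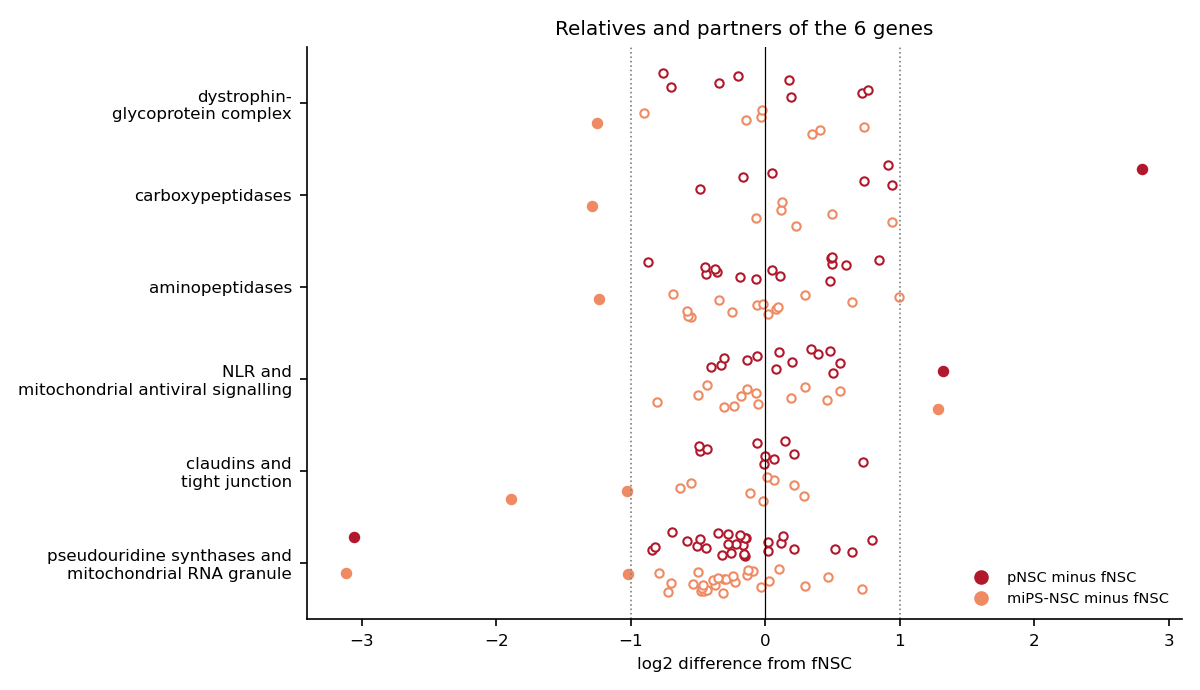
Log2 difference from fNSC of the measured genes in each of the 6 partner lists, for pNSC and for miPS-NSC, with filled points for called genes, open points for the rest and dotted lines at a 2-fold change. Of the 83 genes, 3 points are filled for pNSC and 8 for miPS-NSC, and Qpct (pNSC) and Tfb1m (both, not above background there) lie farthest from 0 as fitted.

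The 6 genes lie on chromosomes 6 (Sspn), 15 (Cpq), 9 (Nlrx1 and Rpusd4), 5 (Cldn12) and 2 (Npepl1). The 3 nearest genes with a kept probe on each side of every gene, 36 in all, included none with the shared detection profile. In pNSC 5 of them were called higher and 2 lower than in fNSC (19.4%, against 11.4% of all genes), and in miPS-NSC 5 higher and 3 lower (22.2%, against 14.1%). Beside Cldn12 the called neighbours were higher. Steap1, a membrane oxidoreductase gene, was at least 8.04-fold higher in pNSC and at least 6.21-fold higher in miPS-NSC than in fNSC, and its relative Steap2 was 6.18-fold and 3.77-fold higher. Fzd1, a Wnt receptor gene, was 4.28-fold higher in pNSC and 2.5-fold higher in miPS-NSC, and Cfap69 was at least 1.59-fold higher in miPS-NSC.

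Beside Rpusd4 the called neighbours were lower. Srpr, which encodes a subunit of the signal recognition particle receptor, was 2.87-fold lower in pNSC and 3.13-fold lower in miPS-NSC than in fNSC, and Fam118b was 2.33-fold and 3.37-fold lower, with 1 of 2 miPS-NSC arrays detecting it. With the authors' values neither was called. Beside Cpq, Sema5a, an axon guidance gene, was 6.56-fold higher in pNSC and 2.05-fold higher in miPS-NSC. Beside Nlrx1, Usp2 was 2.21-fold higher in pNSC and Abcg4, a sterol transporter gene, 2.67-fold lower in miPS-NSC. None of the neighbours of Sspn or Npepl1 was called, among them the imprinted gene Gnas next to Npepl1, which averaged 10.86 in pNSC and 11.23 in miPS-NSC, against 10.69 in fNSC and 10.98 in MEF. The authors' values left 4 neighbour calls in pNSC (Steap1, Steap2, Fzd1 and Sema5a) and 2 in miPS-NSC (Steap1 and Steap2).

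**Figure D5:**
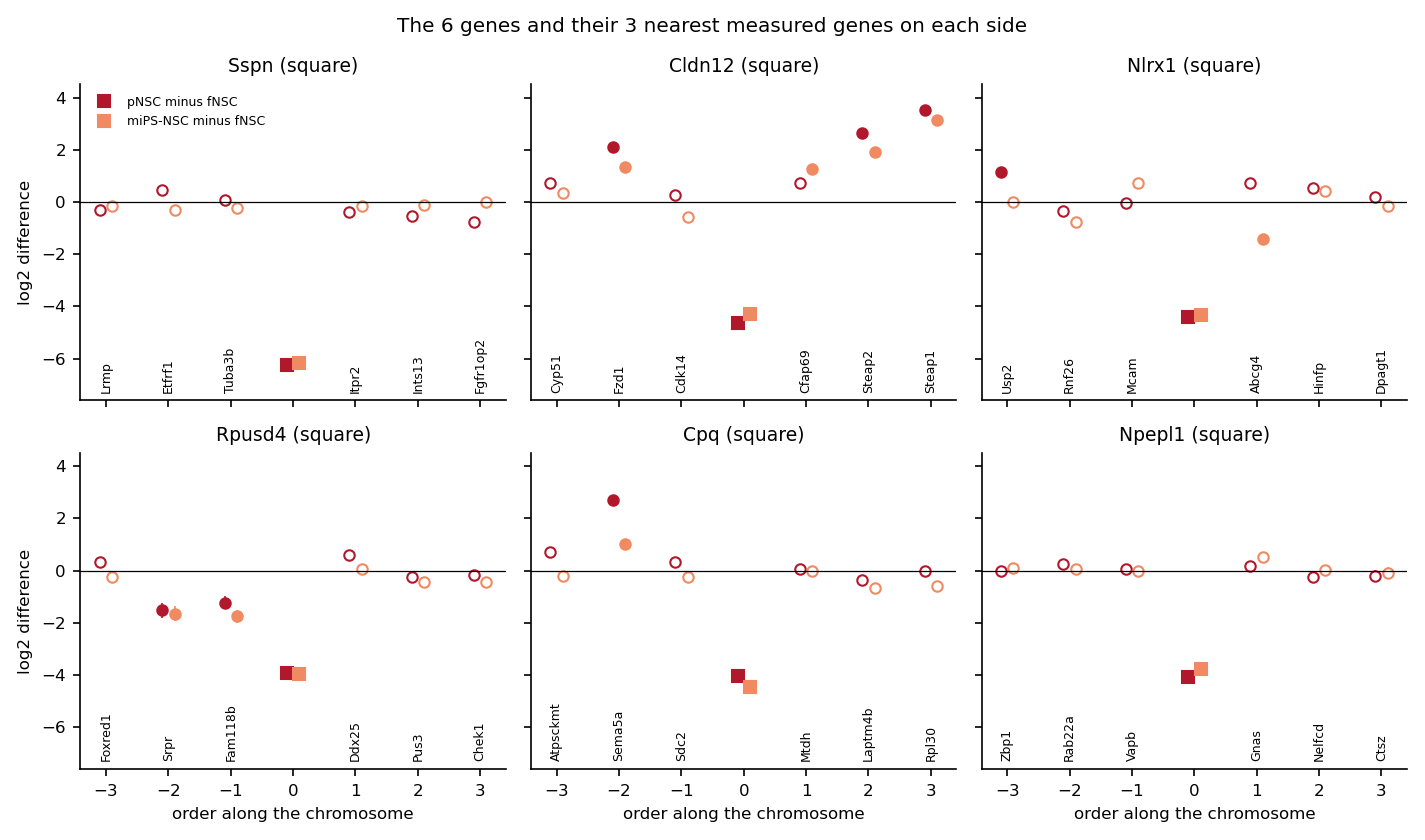
Log2 difference from fNSC of the 3 nearest measured genes on each side of each of the 6 genes (circles, filled where called, with standard error bars) and of the 6 genes themselves (squares, as fitted, although not above background in pNSC and miPS-NSC), for pNSC and for miPS-NSC, by order along the chromosome. The squares lie below every circle, and the circles beside Cldn12 reach the highest values.

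The stretches before the annotated starts of these genes differ in base composition. RefSeq (build GRCm38.p6) gave promoter sequences for 5 of the 6 genes, and the 250 bases before the start are shown for the pair poorest in CG pairs and the pair richest in them, with CG pairs in capitals, since CG pairs are the sites of DNA methylation in mammals. They are Sspn at chr6:145931623-145931872 (plus strand), Nlrx1 at chr9:44268600-44268849 (minus strand), Rpusd4 at chr9:35267631-35267880 (plus strand) and Npepl1 at chr2:174110101-174110350 (plus strand).
Sspn: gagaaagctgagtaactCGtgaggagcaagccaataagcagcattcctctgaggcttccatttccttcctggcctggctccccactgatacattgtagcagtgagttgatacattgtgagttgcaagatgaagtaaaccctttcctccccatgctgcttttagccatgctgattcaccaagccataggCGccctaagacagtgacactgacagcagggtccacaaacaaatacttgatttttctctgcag
Nlrx1: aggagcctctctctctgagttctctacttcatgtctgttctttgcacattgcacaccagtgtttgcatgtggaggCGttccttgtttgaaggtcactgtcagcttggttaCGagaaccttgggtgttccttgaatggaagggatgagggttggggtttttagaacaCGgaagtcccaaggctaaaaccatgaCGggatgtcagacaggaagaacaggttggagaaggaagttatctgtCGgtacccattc
Rpusd4: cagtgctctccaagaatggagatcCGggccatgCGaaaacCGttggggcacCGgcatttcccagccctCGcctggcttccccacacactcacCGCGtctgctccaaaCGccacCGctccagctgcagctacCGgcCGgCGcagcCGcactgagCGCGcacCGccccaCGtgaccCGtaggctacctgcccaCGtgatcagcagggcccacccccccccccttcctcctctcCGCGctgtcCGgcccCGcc
Npepl1: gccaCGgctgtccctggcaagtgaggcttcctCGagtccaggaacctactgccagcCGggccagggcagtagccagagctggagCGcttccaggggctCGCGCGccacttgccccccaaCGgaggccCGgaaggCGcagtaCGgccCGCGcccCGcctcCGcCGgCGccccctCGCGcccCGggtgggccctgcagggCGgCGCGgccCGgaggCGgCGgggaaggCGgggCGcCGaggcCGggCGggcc
Sspn has 2 CG pairs here, and 18.8% of the 32851 promoters in the table have fewer, against a median of 6. Nlrx1 has 5, Rpusd4 23 and Npepl1 31, with 44.4%, 86.7% and 94.8% of promoters below them. Cldn12 at chr5:5514977-5515226 (minus strand) has 6. Other annotated starts gave 6 for Sspn, 16 and 20 for Cldn12 and 4 for Nlrx1, and which start the cells used was not measured. Searched on both strands, GGGCGG was found once before Rpusd4 and at 2 places before Npepl1 (in 32.7% of all promoters), CACGTG at 2 places before Rpusd4 (6.02%), CCAAT once before Sspn (33.8%) and TATAAA before none of the 5 (12.4%). GGGCGG and CACGTG each contain a CG pair, so these counts overlap. The letters do not say whether any factor binds or whether any pair is methylated, which these arrays did not measure.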

How the data were processed

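RNA of 8 samples was measured on Illumina BeadChips. The authors deposited, per the file headers, each probe's mean bead intensity, detection p-value, bead standard error and count of beads, and separately processed log2 values for 12421 probes. GenomeStudio 2009.2 is named per the submitters' processing notes. The authors' deposited log2 values have the same quantiles on every array (median 9.12), hold the probes with a detection p-value under 0.05 on at least 4 arrays, and followed the arrays' own signal (r of at least 0.997). The labels do not state how they were normalized.

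Intensities were background-corrected and quantile-normalized with neqc (limma 3.58.1, R 4.3.3, offset 16), using the detection p-values. Probes with a detection p-value under 0.01 on both arrays of a group were kept (12478), and limma's linear model with moderated variance was fitted over all 8 arrays with Benjamini-Hochberg adjustment over all kept probes. A call needed an adjusted p-value under 0.05 and a 2-fold difference. The model had 4 residual degrees of freedom. A listed gene stands by its brightest kept probe (8107 genes). Names came from the platform table (11692 probes with 1 symbol, 729 with none) and 11686 were matched to RefSeq by gene ID, so a probe outside the 12421 carries no name here and could not be counted. Bounds follow the array's lowest detected signal. No 2 arrays held identical values. The number of arrays limits the precision.

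The 6 genes and all lists were chosen with earlier results of these data known. Named genes were the called genes of a list (up to 4), called neighbours and the 2 genes nearest in profile. Partners that were not called and are given as examples, and Gnas, were chosen after their values were seen. Neighbour order is that of RefSeq (GRCm38.p6). The fit was tested on simulated data. Alternatives were the authors' values, quantile normalization without background correction, median scaling, other detection filters, an intensity trend, a replicate block, leaving out each array and, added after seeing the data, setting values below background to the array's lowest detected signal. Promoter sequences are from RefSeq (GRCm38.p6).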

Additional observations from a re-analysis of the deposited data

How the results depend on the processing

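With 2 arrays a group and no record of separate cultures, the precision is that of repeat arrays, and values near background are compressed or stretched by the correction chosen. The 28 differences of the 7 probes between pNSC or miPS-NSC and fNSC or MEF were below 0 under every alternative run. Between fNSC and MEF no direction turned under the 15 alternatives, and Cpq passed the 2-fold limit with median scaling and, at -1.03, without MEF replicate 1. Counts fell when the authors' values or quantile normalization without background correction were used. Probes called lower went to 209 and 212 in pNSC against fNSC (582 as reported), 273 and 271 in miPS-NSC against fNSC (683), 1432 and 1628 in pNSC against MEF (2739), and 1372 and 1586 in miPS-NSC against MEF (2701). Calls in fNSC against MEF went to 2862 and 3275 (5752). Genes called went to 446 and 436 in pNSC against fNSC (928) and 566 and 548 in miPS-NSC (1144). Called neighbours went to 4 and 4 in pNSC (7) and 2 and 2 in miPS-NSC (8), and called partner genes in miPS-NSC to 3 and 2 (8). Requiring p-values of at least 0.05 where signal was lacking left 21 of the 51 probes and 17 of the 58 with the reverse profile. Leaving out 1 array in turn gave 54 to 98 and 59 to 107 for these profiles, the highest without fNSC replicate 2 and without fNSC replicate 1, since fewer arrays must meet the requirement. It gave 578 to 631, 677 to 752, 2728 to 2821 and 2681 to 2774 probes called lower in the order above, 5746 to 5896 calls in fNSC against MEF, 918 to 978 and 1130 to 1193 genes, 3 to 4 and 8 to 10 partner genes, 7 to 8 neighbours in both comparisons, and 4 to 5 of the 7 probes in fNSC against MEF. Deviations of same-numbered arrays correlated at -0.006 to 0.0775 over 6 group pairs, so the numbers do not pair the arrays. With the replicate block 582, 683, 2738 and 2704 probes were called lower and 5753 in fNSC against MEF, with 929 and 1143 genes, 3 and 8 partner genes, 7 and 8 neighbours and 4 of the 7 probes called. A block for the slide was not run, since the files give no slide.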

Other observations

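Other genes shared the detection profile, and those named here were chosen after their values were seen. Wdr46, a nucleolar protein gene on chromosome 17, showed it with both of its probes. The brighter one averaged 5.79 ± 0.07 in pNSC and 5.55 ± 0.28 in miPS-NSC, against 8.94 ± 0.07 in fNSC and 8.73 ± 0.05 in MEF (normalized log2, SD, n = 2 each). Me1, the cytosolic malic enzyme that makes NADPH, averaged 5.27 ± 0.34 in pNSC and 5.12 ± 0.08 in miPS-NSC, against 8.45 ± 0.28 in fNSC and 10.35 ± 0.02 in MEF. Tipin, a gene of the replication fork protection complex, averaged 5.16 ± 0.01 in pNSC and 5.01 ± 0.03 in miPS-NSC, against 7.97 ± 0.42 in fNSC and 8.04 ± 0.01 in MEF. Ltbr, the lymphotoxin beta receptor gene, averaged 4.71 ± 0.05 in pNSC and 4.62 ± 0.13 in miPS-NSC, against 6.96 ± 0.01 in fNSC and 8.27 ± 0.10 in MEF. The paternally expressed gene Ndn on chromosome 7 was also among the 51 probes, with a gap of at least 3.16 log2 between its lowest array with signal and its highest without.

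With values below background set to the lowest detected signal, the median gap was 0.314 log2 units over the 51 probes and 0.323 over the 58 with the reverse profile, and the widest were 3.44 and 2.44.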
